A study of Drosophila melanogaster with 6 samples.

Results

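Transcript levels in heads of *Drosophila melanogaster* flies labelled as over-expressing *cbt* were set against those in heads of control flies, over all 10893 probe sets of the arrays that are not array controls. The arrays were chosen by their treatment label and paired by time of day, which took in 4 of the 6 arrays of the series: 2 labelled *cbt* over-expression, 1 from ZT3 and 1 from ZT15, and 2 labelled control, likewise 1 from each time. ZT (Zeitgeber time) counts the hours after the lights come on, so that ZT3 is a daytime and ZT15 a night-time sample. Each array held total RNA of 30 pooled heads from flies entrained to light and dark for 3 to 4 days, hybridised to the Affymetrix Drosophila 2.0 array, on which a probe set is a group of short oligonucleotides for 1 transcript.

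The over-expression-labelled flies are described by that label alone, without the transgene, its driver, or the sex or age of the flies. The control flies are called cyo in the design text. CyO is the usual name of a balancer of chromosome 2, and no fuller genotype is given. The remaining 2 arrays, labelled *cbt* RNAi, entered the statistical model for its estimate of the spread and are given here as context. Nothing in the labels says whether arrays of 1 genotype stem from separate crosses or cultures. The p-values therefore measure only the spread among these 6 arrays.

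The product of *cbt* (*cabut*) is a zinc finger transcription factor, induced by dietary sugar, that acts with the sugar sensor Mondo-Mlx. It is known as a repressor of the gluconeogenic gene *Pepck1* and as a link between sugar sensing and rhythmic metabolic genes. The fly head holds the eyes and the brain, and also fat body, muscle, hemocytes (blood cells) and cuticle, so that immune, metabolic and neuronal transcripts are all measured in it.

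All levels are log2 probe set signals, on which a difference of 1 is 2-fold, and all differences are over-expression-labelled minus control. The signal of *cbt* went against the labels. Its only probe set had signals of 8.98 (ZT3) and 9.90 (ZT15) on the over-expression-labelled arrays, against 10.21 and 10.72 on control arrays. Both over-expression-labelled arrays lay below both control arrays, by -1.03 ± 0.20 (SE, 2 arrays per genotype) with a 95% interval of -1.54 to -0.52, which did not pass the threshold here (limma, adjusted p = 0.0507). The call depends on the setting, since it passed with only the 4 arrays compared (adjusted p = 0.0257) and did not without the term for time (0.147). Where the probe set lies relative to a transgene was not analysed here. Genotypes are therefore named by label, and the directions given below carry no statement about *cbt* levels.

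Defining transcripts of the head were high on the arrays of both genotypes. The photoreceptor channel gene *trp* had 12.07 at ZT3 and 12.64 at ZT15 on the over-expression-labelled arrays, against 12.49 and 12.55 on control arrays. *chp*, which encodes the photoreceptor surface protein chaoptin, read 12.11 and 12.46, against 12.38 and 12.47. The array medians were between 7.35 and 7.42. A pair of arrays stood apart in some features. The over-expression-labelled ZT3 array held 67 probe sets at least 4-fold above each of the other 5 arrays, while no other array held more than 2 such probe sets. Its middle 18S ribosomal RNA control probe set read 7.36, where the others had 8.79 to 10.77. This probe set was lower in the over-expression-labelled genotype at both times, at 7.36 and 8.79 against 8.94 and 10.59 on control arrays. So were the 3' one, at 9.28 and 10.52 against 11.13 and 11.95, and the 5' one, at 6.32 and 8.19 against 7.89 and 10.23. On the control ZT15 array every Dap, Lys, Phe and Thr control probe set, for bacterial transcripts, was the highest of all arrays. The 3' DapX one read 11.88, where the other arrays had 9.16 to 10.87. The 5' PheX one read 7.53, where the other arrays had 3.88 to 5.21. The part of these features in the results was not tested. Calls of named genes that were lost with the over-expression-labelled ZT3 array left out are marked below. Without an over-expression-labelled or control array, a single array of that genotype remains. The p-values of such a fit hold no spread between arrays of that genotype.

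Across both times, 660 of the 10893 probe sets (6.06%) differed between the genotypes at an adjusted p under 0.05 in a limma model with genotype and time as additive terms over all 6 arrays. Of these 430 were higher (3.95%) and 230 lower (2.11%) in the over-expression-labelled heads. At least 2-fold differences made up 213 of the higher and 62 of the lower calls. All 660 had 1 sign at both times, and 439 of them were larger at ZT3. The model counts unlike differences at ZT3 and ZT15 as spread, so a shared sign is largely a condition of being called. Both over-expression-labelled arrays lay above all 4 others for 389 of the higher calls, and below all 4 others for 176 of the lower ones. With 1 probe set standing for each gene, 543 of 8517 genes (6.38%) were called, 370 higher (4.34%) and 173 lower (2.03%). These shares are the background of every list count below. The calls need both control arrays. Without the control ZT3 array limma called 0 probe sets (1817 at an unadjusted p under 0.05), and without the control ZT15 array also 0 (1521), so every call below was lost in both of these fits. Without the over-expression-labelled ZT3 array 292 were called higher and 100 lower, 339 of them among the 660, and without the over-expression-labelled ZT15 array 1436 were called.

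Differences were larger and more frequent at ZT3 than at ZT15. With 1 array per genotype at each time these counts have no replicate check and no test. At ZT3, 451 probe sets (4.14%) were at least 2-fold higher and 176 (1.62%) at least 2-fold lower. At ZT15, 251 (2.3%) were at least 2-fold higher and 69 (0.633%) at least 2-fold lower. At least 1.5-fold differences in 1 direction at both times were seen for 480 higher (4.41%) and 228 lower (2.09%) probe sets, and in opposite directions for 7 (0.0643%). In 28 probe sets both over-expression-labelled arrays were at least 4-fold above all 4 others, and in none were both at least 4-fold below them.

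**Figure D1:**
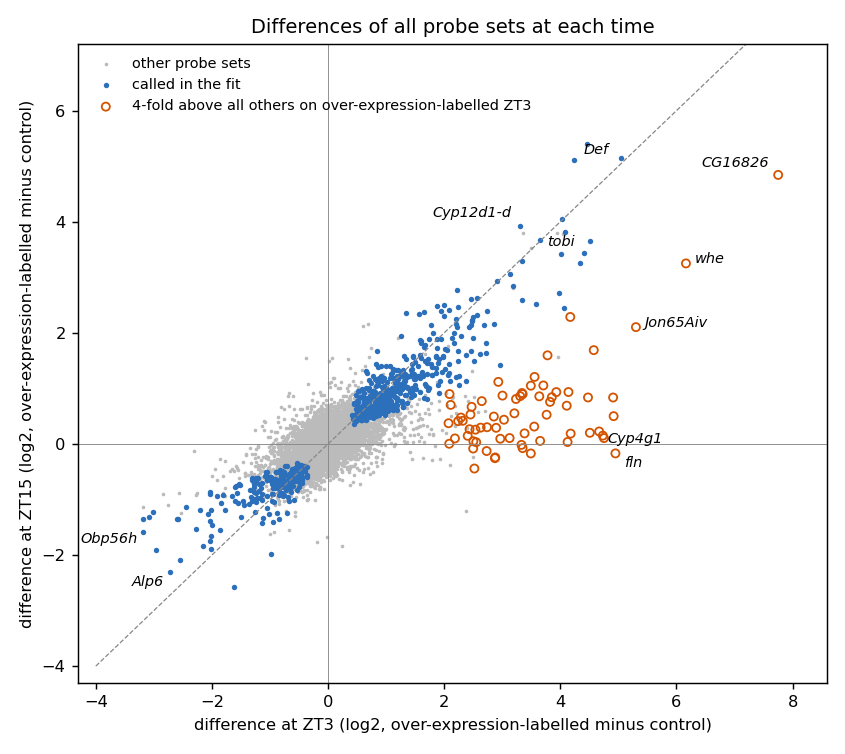
Difference of each probe set at ZT3 (horizontal axis) and at ZT15 (vertical axis), both in log2 units as over-expression-labelled minus control, with 1 point for each of the 10893 probe sets, the 660 called ones in blue and the 67 that are at least 4-fold above all other arrays on the over-expression-labelled ZT3 array ringed in orange. Called probe sets lie near the dashed line of equal differences, since the model counts unlike differences at ZT3 and ZT15 as spread. Most ringed probe sets lie right of that line, with a median difference of 3.33 at ZT3 and 0.44 at ZT15.

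Several genes of the humoral immune response were higher in the over-expression-labelled heads at both times. In this response, peptidoglycan recognition proteins sense bacteria, the Toll and Imd pathways carry the signal to NF-kappaB factors such as Relish, and fat body and blood cells secrete antimicrobial peptides. *Def*, which encodes the peptide Defensin, had 11.60 at ZT3 and 11.21 at ZT15 on the over-expression-labelled arrays, against 7.36 and 6.09 on control arrays. The difference was 4.68 ± 0.48 (SE), a 25.6-fold increase (limma, adjusted p = 0.0144), and the RNAi-labelled arrays, at 6.05 and 6.96, lay with the control arrays. Of the 16 antimicrobial peptide genes measured, 6 rose and 0 fell, against 4.34% of all genes that rose, and the list had a median difference of 1.27, against 0.01 over all genes.

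The peptide genes that passed differed widely in level. The attacin gene *AttD* was dim, at 6.11 and 5.46 on the over-expression-labelled arrays against 4.30 and 3.46 on control arrays, and rose by 1.90 (adjusted p = 0.0322). Its control signal at ZT15 allows no fold change to be read. The drosomycin-like genes *Drsl4* and *Drsl5* and the bomanin genes *BomBc3* and *BomBc2* were bright. *Drsl4* read 12.83 and 12.82, against 10.98 and 11.24 on control arrays, and *BomBc3* 12.92 and 12.81, against 11.32 and 11.01. These rose by 1.72 (adjusted p = 0.0144) and 1.70 (adjusted p = 0.0054), and *Drsl5* and *BomBc2* by 1.11 and 0.70. Probes for such families of similar genes may pick up each other's transcripts, so the share of a single member is uncertain.

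Other peptide genes stood higher without passing, and their levels differed widely between the RNAi-labelled arrays, which enter the estimate of the spread. *DptB*, which encodes a diptericin, read 12.66 and 11.98 in over-expression-labelled heads, against 9.30 and 8.18 in control heads (limma, adjusted p = 0.104). On the RNAi-labelled arrays it read 11.59 at ZT3 and 6.604 at ZT15. The drosomycin gene *Drs* read 12.37 and 12.47, against 8.87 and 8.94 in control heads (adjusted p = 0.124), and *Mtk*, the metchnikowin gene, 13.26 and 12.66, against 11.60 and 11.04 (adjusted p = 0.407). For these genes too the over-expression-labelled arrays were above both control arrays. Without the RNAi-labelled ZT3 array or the RNAi-labelled ZT15 array, 11 of the 16 peptide genes passed (4.78% of all genes rose in either case), in contrast to 6 with all 6 arrays.

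Among recognition proteins, 3 of 8 measured genes rose and 0 fell, against 4.34% and 2.03% of all genes. *PGRP-SC2*, a secreted amidase gene, read 11.51 and 9.81 on the over-expression-labelled arrays, against 7.18 and 6.55 on control arrays, and rose 13.9-fold (3.80 ± 0.41, limma adjusted p = 0.0148). The RNAi-labelled ZT3 array was intermediate at 8.34. *PGRP-SB1*, another amidase gene, read 12.95 and 12.10, against 10.90 and 10.41, and rose by 1.87 (adjusted p = 0.0242). *PGRP-LB*, known as a negative regulator of the Imd pathway, rose by 0.93 (adjusted p = 0.0394), but not with the over-expression-labelled ZT3 array left out (0.0502). Its over-expression-labelled levels of 6.44 and 6.05 were close to the RNAi-labelled ones of 6.28 and 5.95, and both exceeded the control levels of 5.73 and 4.89.

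Of 20 Imd and Toll pathway genes 6 rose and 0 fell, against 4.34% and 2.03% of all genes, with a list median of 0.12. *SPE*, the protease that activates the Toll ligand, read 11.71 and 11.90 in over-expression-labelled heads, against 10.79 and 10.50 in control heads, and rose by 1.16 (limma, adjusted p = 0.0248). The Toll ligand gene *spz* rose by 0.95 (adjusted p = 0.0131), the NF-kappaB gene *Rel* by 0.78 (adjusted p = 0.0187) and the adaptor gene *Myd88* by 0.59 (adjusted p = 0.0488). The protease gene *grass* and the serpin gene *nec* rose by 0.64 and 0.73. For *SPE*, *spz*, *Rel*, *Myd88*, *grass* and *nec* both over-expression-labelled arrays lay above all 4 others. Of the list 3 passed without the over-expression-labelled ZT3 array, and *nec* (adjusted p = 0.0546), *grass* (0.0708) and *Myd88* (0.0759) did not. In that fit 2.96% of all genes rose and 0.822% fell.

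**Figure D2:**
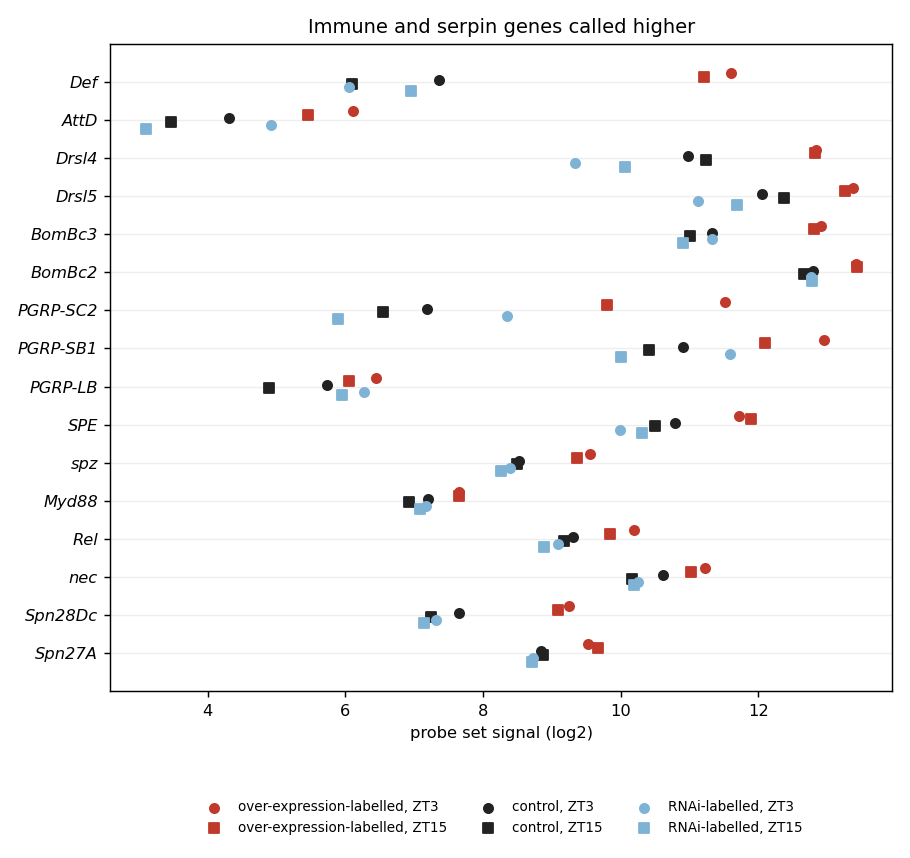
Signal (log2, horizontal axis) of immune and serpin genes called higher, on each of the 6 arrays, with circles for ZT3 and squares for ZT15, in red for over-expression-labelled, black for control and blue for RNAi-labelled heads. The red points of every gene lie right of its black points, by the most for *Def*, while for *PGRP-LB* the blue points lie next to the red ones.

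Serpins, which inhibit the proteases of immune cascades, rose in 6 of 17 genes and fell in 0, against 4.34% and 2.03% of all genes. *Spn28Dc* read 9.25 and 9.10 in over-expression-labelled heads, against 7.65 and 7.24 in control heads, and rose by 1.73 (limma, adjusted p = 0.0063). *Spn43Aa* read 5.31 and 6.02, against 3.65 at both times, and rose (adjusted p = 0.0146), although control signals so near the bottom of the scale allow no fold change to be read. *Spn27A*, which limits melanisation and Toll signalling, rose by 0.74, *Spn88Ea* by 0.91 and *Spn88Eb* by 0.68. Of the list 5 passed without the over-expression-labelled ZT3 array.

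Of 5 genes of the Turandot and JAK-STAT stress list 2 rose and 0 fell, against 4.34% and 2.03% of all genes. *TotC*, a secreted stress peptide gene, read 13.01 and 12.43 on the over-expression-labelled arrays, against 10.40 and 10.80 on control arrays and 5.21 and 6.02 on RNAi-labelled arrays. It rose by 2.12 ± 0.32 (SE, adjusted p = 0.0304). *TotB* was dimmer, at 5.71 and 4.25 against 3.19 and 3.41, and did not pass (adjusted p = 0.0892). *Sid*, the gene of a stress-induced DNase, read 10.46 and 10.61, against 7.72 and 8.22, and rose by 2.56 ± 0.15 (adjusted p = 0.0054). *TotC* and *Sid* were these 2, while the receptor gene *dome* and the transcription factor gene *Stat92E* had differences of 0.46 and 0.18. None of 9 heat shock genes passed, with a list median of 0.01.

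Of 22 hemocyte markers 4 rose and 0 fell, against 4.34% and 2.03% of all genes. The list averaged 8.30 and 8.16 on the over-expression-labelled arrays, against 7.998 and 7.90 on control arrays. The engulfment receptor gene *NimC4* read 6.59 and 7.15, against 5.01 and 5.55, and rose by 1.59 (limma, adjusted p = 0.0144). *Hml*, the hemolectin gene, rose by 1.02 (adjusted p = 0.0201). The collagen gene *vkg* and the matrix gene *Ppn* rose by 0.68 and 0.50, although neither passed once the over-expression-labelled ZT3 array was left out (adjusted p = 0.0663 and 0.0855). Other defining markers had small differences that did not pass, at 0.49 for *NimC1*, 0.26 for *eater*, 0.11 for *PPO1* and -0.03 for *srp*. The part of hemocyte number in the immune results was not tested. In whole heads, more cells of a type and more RNA per cell cannot be told apart.

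Several of the highest genes of the over-expression-labelled heads lie outside immunity. *tobi*, an alpha-glucosidase gene that insulin signalling regulates, read 12.30 and 12.08 on the over-expression-labelled arrays, against 7.90 and 8.64 on control arrays, and rose 15.2-fold (limma, adjusted p = 0.0259). *hll*, an acyl-CoA synthetase gene, read 10.62 and 8.995, against 6.98 and 5.33, and rose by 3.65 ± 0.42 (adjusted p = 0.0172). On the RNAi-labelled arrays *hll* was lower still, at 3.93 and 3.91.

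*whe* was the called gene with a symbol that rose most, 26.1-fold, and was much higher at ZT3. It read 11.71 and 8.66 in over-expression-labelled heads, against 5.55 and 5.41 in control heads (4.71 ± 0.71, limma adjusted p = 0.0304). A gene known only by its number, *CG16826*, named after its values were seen, rose as well. It read 10.87 and 8.03, against 3.12 and 3.19 in control heads and 3.22 and 2.97 in RNAi-labelled heads (adjusted p = 0.0160), near the bottom of the scale, so that no fold change can be read. These 2 genes are the only called ones among the 67 probe sets that are high on the over-expression-labelled ZT3 array, and their ZT15 differences of 3.25 and 4.84 do not involve that array.

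Transporter, odorant-binding and cuticle genes were among the rest of this group. *Mdr50*, a gene of the P-glycoprotein type of drug exporter, read 7.08 and 6.14 on the over-expression-labelled arrays, against 3.50 and 3.63 on control arrays (limma, adjusted p = 0.0144), control signals too dim for a fold change. *lush*, whose odorant-binding protein is needed to sense the male pheromone cis-vaccenyl acetate, read 6.78 and 6.42, against 4.21 and 3.79 (2.60 ± 0.13, adjusted p = 0.0047). Its control signals too are dim for a fold change. *obst-B*, a chitin-binding cuticle protein gene, read 7.205 and 6.94, against 4.65 and 4.62 (2.44 ± 0.22, adjusted p = 0.0131). In all 3 genes the RNAi-labelled arrays stayed between 3.00 and 4.44. *edin*, an infection-induced gene, rose by 3.26 (adjusted p = 0.0188) with 7.99 and 6.57, against 3.92 and 4.12, control signals too dim for a fold change. The seminal fluid protein gene *Sfp33A3* was dim at 5.50 and 5.71, against 2.58 and 2.78 near the bottom of the scale, so its difference of 2.92 is a poor guide to a fold change. *phtm*, which encodes an ecdysone-synthesis P450 and was named after its values were seen, rose by 1.95 (adjusted p = 0.0144), at 6.12 and 6.77 against 4.35 and 4.63.

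Some detoxification genes were higher too. Cytochrome P450 enzymes oxidise hormones, lipids and foreign compounds, and UDP-glycosyltransferases attach sugars to such products. Of 69 P450 genes, a list without *phtm*, 10 rose and 1 fell, against 4.34% and 2.03% of all genes. *Cyp12d1-d* read 8.87 and 8.76 in over-expression-labelled heads, against 5.56 and 4.83 in control heads, and rose 12.3-fold (3.62 ± 0.19, limma adjusted p = 0.0049). Its copy *Cyp12d1-p* is nearly identical, so its signal may belong to either gene. *Cyp309a2* read 9.18 and 9.12, against 7.23 and 6.72, and rose by 2.18 (adjusted p = 0.0216). *Cyp6a23* and *Cyp4p1* rose by 1.51 and 1.30, but their RNAi-labelled levels, 9.03 and 8.90 for *Cyp6a23* and 10.90 and 10.27 for *Cyp4p1*, were also above control. *Cyp6a20*, a gene linked to male aggression, fell by 0.86 (adjusted p = 0.0131).

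Of 19 UDP-glycosyltransferase genes 3 rose and 0 fell, against 4.34% and 2.03% of all genes, and 17 of the 19 differences were positive. *Ugt37A3* read 7.78 and 7.65, against 5.30 and 5.44 in control heads, and rose by 2.35 (limma, adjusted p = 0.0287). *Ugt36E1* and *Ugt37D1* rose by 1.03 and 0.66, the second not with the over-expression-labelled ZT3 array left out (adjusted p = 0.116). Among 30 glutathione S-transferase genes only *GstE1* and *GstE3* rose, by 0.64 and 0.51, near the share over all genes, and the list median was 0.01. Neither passed once the over-expression-labelled ZT3 array was left out, where their differences were 0.55 and 0.48. Among 18 genes of iron, haem and oxidative stress 3 rose: the multicopper oxidase gene *Mco1* by 1.53, the transferrin gene *Tsf1* by 1.13 and the mitochondrial superoxide dismutase gene *Sod2* by 0.45, the last not with that array left out (adjusted p = 0.117). *Tsf1* read 13.46 and 13.50, against 12.30 and 12.41 in control heads. *Mco1* read 3.86 at ZT3 in control heads, too dim for a fold change. On the RNAi-labelled arrays *Ugt36E1*, at 8.43 and 7.74, *GstE3*, at 10.12 and 9.74, and *Sod2*, at 11.09 and 11.21, were also above control. *Ugt37D1*, at 7.29 and 7.77, was below it.

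Odorant-binding proteins, secreted carriers of small hydrophobic molecules, moved both ways. Of 27 genes with an Obp symbol, a list without *lush*, 2 rose and 5 fell, against 4.34% and 2.03% of all genes. *Obp56h* read 6.49 and 8.79 on the over-expression-labelled arrays, against 9.68 and 10.38 on control arrays, and fell by 2.39 (limma, adjusted p = 0.0441). *Obp56g* read 9.67 and 11.15, against 12.12 and 12.29, and fell by 1.79 (adjusted p = 0.0372). *Obp56f* and *Obp56e*, of the same cluster on 2R, fell by 1.18 and 0.48, and *Obp18a* fell by 0.74. In contrast *Obp56a*, also of that cluster, read 9.70 and 9.30, against 7.91 and 7.92, and rose by 1.58 (adjusted p = 0.0103), while *Obp56d* had a difference of -0.25 (adjusted p = 0.135). *Obp83g* rose by 2.20 (adjusted p = 0.0111), at 6.47 and 6.13 against 3.97 and 4.21, control signals too dim for a fold change. With the over-expression-labelled ZT3 array left out, the differences were -1.54 for *Obp56h*, -1.23 for *Obp56g*, -1.35 for *Obp56f*, -0.58 for *Obp56e* and -0.72 for *Obp18a*. Those of *Obp56a* and *Obp83g* were 1.42 and 1.92.

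Of 58 cuticle protein genes 8 rose and 3 fell, against 4.34% and 2.03% of all genes. *TwdlT*, of the Tweedle family, read 8.42 and 7.90 in over-expression-labelled heads, against 5.99 and 5.79 in control heads, and rose by 2.27 (limma, adjusted p = 0.0131). *Cpr97Eb*, *Cpr100A* and *Cpr78E* rose by 1.58, 1.38 and 1.24, and *Cpr11B*, *Cpr49Ag* and *Cpr49Ae* fell by 0.96, 0.95 and 0.59. *Cpr78E* read 3.89 and 4.06 in control heads, too dim for a fold change. With the over-expression-labelled ZT3 array left out, the calls of *Cpr78E*, *Cpr11B*, *Cpr49Ag* and *Cpr49Ae* were lost. Their differences there were 0.83, -0.67, -0.65 and -0.58. Those of *TwdlT*, *Cpr97Eb* and *Cpr100A* were 2.31, 1.45 and 1.05.

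Among the lower genes were a lipid droplet gene and 2 alkaline phosphatase genes. *Lsd-1*, a perilipin gene whose protein coats lipid droplets, read 8.39 and 9.15 on the over-expression-labelled arrays, against 10.59 and 10.35 on control arrays, and fell by 1.70 ± 0.25 (SE, limma adjusted p = 0.0287). *phu*, an alkaline phosphatase gene, read 9.14 and 10.56, against 12.32 and 11.92, and fell by 2.27 (adjusted p = 0.0490). Another alkaline phosphatase gene, *Alp6*, read 4.08 and 4.34, against 6.80 and 6.64, and fell by 2.51 ± 0.15 (adjusted p = 0.0054). For *Lsd-1* and *phu* the RNAi-labelled arrays lay with the control arrays, while for *Alp6*, at 4.43 and 4.40, they lay with the over-expression-labelled ones.

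Some genes passed in only part of their probe sets. *Gfat1*, for the first enzyme of hexosamine synthesis, fell by 1.95 (limma, adjusted p = 0.0092) in a dim probe set that read 5.76 and 5.87, against 7.78 and 7.75 in control heads. Its brightest probe set, at 9.48 and 9.76 against 8.78 and 9.41, had a difference of 0.53. *Gpdh1*, for the cytosolic glycerol-3-phosphate dehydrogenase, fell by 1.25 (adjusted p = 0.0168) in 1 of 4 probe sets, and the others had differences of -0.75, -0.48 and -0.05. The splicing regulator gene *mbl* fell by 1.22 in 1 of 6 probe sets and fell in another, dim one, at 3.26 and 3.72 against 4.88 and 6.30, where the over-expression-labelled signals are near the bottom of the scale. Its brightest had a difference of -0.59. The calcium pump gene *PMCA* fell by 1.10 in 1 of 3, and the others had differences of -0.42 and -0.50. In these genes a change of the whole gene's output and a change of transcript form cannot be told apart. *eIF4B*, a translation initiation factor gene, had differences of -1.28 to -0.40 in its 4 probe sets, 3 of which passed. The -1.28 was in a dim probe set, at 3.67 and 3.45 against 4.82 and 4.87, where no fold change can be read. Its brightest probe set had -0.55. The calls of -0.75 and -0.55 were lost with the over-expression-labelled ZT3 array left out, where these differences were -0.73 and -0.52.

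The enzyme gene *Loxl2*, of the lysyl oxidase family, and the chemosensory gene *CheA7a* complete the 12 genes with a symbol beyond a number named for the largest decreases at both times. *Loxl2* read 6.32 and 7.26 in over-expression-labelled heads, against 7.82 and 8.58 in control heads, and fell by 1.41 (limma, adjusted p = 0.0476). *CheA7a* read 5.15 and 6.26, against 6.69 and 7.32, and fell by 1.30 (adjusted p = 0.0212). Neither *Loxl2* (adjusted p = 0.0831) nor *PMCA* (0.0518) passed without the over-expression-labelled ZT3 array.

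**Figure D3:**
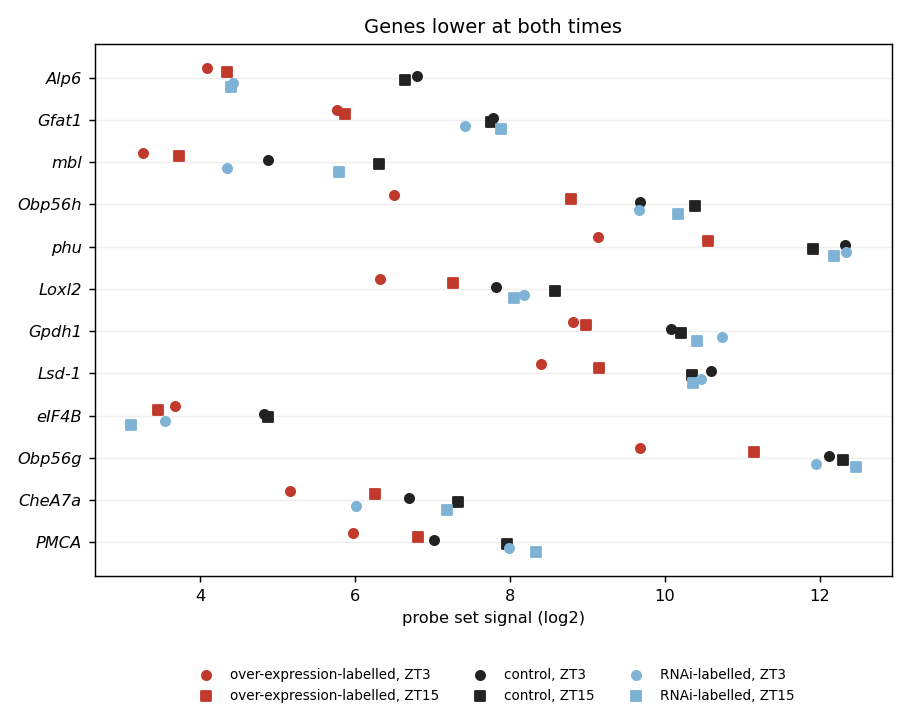
Signal (log2, horizontal axis) of the 12 called genes with a symbol beyond a number and the largest decreases at both times, on each of the 6 arrays, with circles for ZT3 and squares for ZT15, in red for over-expression-labelled, black for control and blue for RNAi-labelled heads. The red points lie left of the black points of the same time for every gene, and for *Alp6* and *eIF4B* the blue points lie with the red ones. *Gfat1*, *mbl* and *eIF4B* are shown by dim probe sets.

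Metabolic lists held between 1 and 3 calls each, beside 4.34% of all genes that rose and 2.03% that fell. Of 18 genes of gluconeogenesis and amino acid breakdown 2 fell, the tyrosine breakdown gene *hgo* by 1.19 and the tyrosine aminotransferase gene *Tat* by 0.77, and none rose. *hgo* read 7.32 and 7.01 in over-expression-labelled heads, against 8.93 and 7.79 in control heads (limma, adjusted p = 0.0382). Of 10 glycolysis genes 1 fell, *Tpi*, by 0.44. Of 13 genes of sugar transport and storage 2 rose, *tobi* and the glycogen branching enzyme gene *AGBE*, by 0.59, and 1 fell, the trehalase gene *Treh*, by 0.54. The fatty acid list of 17 held 1 higher gene, the elongase gene *bond*, by 0.67, and 1 lower, *bgm*, by 0.64. Lipid mobilisation and beta oxidation held 3 lower genes of 16, namely *Lsd-1*, *Acox57D-d* by 0.92 and *yip2* by 0.78. *Acox57D-d* read 6.36 and 6.76 on the RNAi-labelled arrays, near its over-expression-labelled 6.26 and 6.86. With the over-expression-labelled ZT3 array left out, the adjusted p exceeded the threshold for *Tpi* (0.187), *AGBE* (0.0687), *Treh* (0.102), *bond* (0.0915), *bgm* (0.139), *Acox57D-d* (0.1001) and *yip2* (0.116).

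Among regulators, 2 of 17 sugar-responsive genes rose and 1 fell, against 4.34% and 2.03% of all genes. The peptide hormone gene *Lst*, known to restrain insulin release, read 11.09 and 10.61 on the over-expression-labelled arrays, against 10.20 and 9.74 on control arrays and 8.94 and 8.22 on RNAi-labelled arrays, and rose by 0.88 (limma, adjusted p = 0.0168). *ImpL2*, for a secreted insulin-binding protein, rose by 0.74 and *foxo*, for the transcription factor that insulin signalling restrains, fell by 0.85. On the RNAi-labelled arrays *ImpL2*, at 11.165 and 10.93, was above its over-expression-labelled 10.40 and 10.52. There *foxo* read 7.34 and 6.87, near its over-expression-labelled 7.14 and 7.23. In the hormone list of 22, 1 rose and 2 fell, beside the same shares of all genes. *Kr-h1*, induced by juvenile hormone, read 6.98 and 7.39, against 8.79 and 8.31, and fell by 1.36 (adjusted p = 0.0358). The nuclear receptor gene *Hr3* fell by 0.77 and the ecdysone-inducible gene *ImpE1* rose by 0.70. With the over-expression-labelled ZT3 array left out, *foxo* (adjusted p = 0.0938), *Hr3* (0.0763) and *ImpE1* (0.0687) did not pass.

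Neuronal genes were mostly lower by small amounts. Of 34 neuron markers 4 fell and 1 rose, against 2.03% and 4.34% of all genes. Only 2 differences of these markers were positive, and the median was -0.41, with -0.50 at ZT3 and -0.26 at ZT15. Their mean signals were 8.24 and 8.56 on the over-expression-labelled arrays, against 8.73 and 8.77 on control arrays. The sodium channel gene *NaCP60E* fell by 0.80 (limma, adjusted p = 0.0223), the complexin gene *cpx* by 0.57 (0.0304), *Snap25* by 0.51 (0.0490) and the synapsin gene *Syn* by 0.45 (0.0435). The potassium channel gene *slo* moved the other way, at 9.14 and 9.28 against 8.37 and 8.33, and rose by 0.86 (0.0215). For *NaCP60E* the RNAi-labelled arrays, at 7.83 and 7.49, lay with the over-expression-labelled ones, at 7.73 and 7.52. For *cpx* and *Snap25* the RNAi-labelled arrays lay with the control ones. None of the 4 lower genes passed without the over-expression-labelled ZT3 array, and 16 neuron markers passed without the over-expression-labelled ZT15 array, where 8.03% of all genes rose and 5.73% fell. Of 29 neuropeptide genes 2 fell, *sNPF* by 0.58 and *AstC* by 0.57, neither without that ZT3 array (adjusted p = 0.123 and 0.120).

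Measures of RNA condition were compared as well. The 3' minus 5' signals of the eIF4a control probe sets were 5.98 and 6.13 on the over-expression-labelled arrays, against 5.71 and 5.53 on control arrays. Those of GAPDH were 3.67 and 3.94, against 3.67 and 3.61, so that eIF4a differed at both times and GAPDH only at ZT15. For Act5C the 3' probe set read 11.65 and 11.60, against 11.37 and 11.48. Its dim 5' probe sets read 4.22 and 3.81, against 4.53 and 4.65, and 4.36 and 3.96, against 4.36 and 4.79. The Act5C gap was thus wider at both times. Their part in the neuronal result was not tested. Of 16 glia markers 1 rose, the blood-brain barrier transporter gene *Mdr65*, by 0.79 (limma, adjusted p = 0.0308), and the list median was -0.20. Among 18 eye pigment genes the transporter gene *st* rose by 1.04 and *lt* fell by 0.54. The glia and eye pigment counts are near the shares over all genes, 4.34% that rose and 2.03% that fell. *Mdr65* (adjusted p = 0.0712), *st* (0.0586) and *lt* (0.0712) did not pass with the over-expression-labelled ZT3 array left out. None of 29 photoreceptor and phototransduction genes passed.

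The core clock ran in the same direction on the arrays of both genotypes. *tim*, a negative arm of the clock, had 10.03 at ZT3 and 12.27 at ZT15 on the over-expression-labelled arrays, against 9.67 and 12.11 on control arrays. *vri*, a repressor of *Clk*, read 7.39 and 10.27, against 7.42 and 10.36, and *Clk* itself 8.09 and 5.63, against 8.12 and 5.82. In each genotype *tim* and *vri* were higher at ZT15 and *Clk* was higher at ZT3. None of 13 clock and output genes passed. The differences closest to the threshold were 0.76 for *Ugt35B1* (limma, adjusted p = 0.0584), -0.85 for the repressor gene *cwo* (0.0588), 0.57 for *per* (0.0599) and -0.91 for the neuropeptide gene *Pdf* (0.0638).

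Lists for general cell functions held no called gene. None of 36 cytosolic ribosomal protein genes, 69 mitochondrial ribosomal protein genes or 61 genes of the respiratory chain and ATP synthase passed, with list medians of 0.03 each. Likewise none of 9 small RNA genes, 20 chemoreceptor genes or 25 skeletal muscle genes passed. Of 10 fat body markers *Tsf1* rose and *Lsd-1* fell, and of 4 Malpighian tubule markers the exchanger gene *Nha1* rose by 0.79. Over all genes 4.34% rose and 2.03% fell. The 5 female head markers, 3 male head markers and 2 testis and accessory gland genes held no call. The male head markers had a median difference of -2.31 at ZT3 and -0.17 at ZT15, and 2 of the 3 were at least 2-fold lower at ZT3. Among them, *Cyp4d21* read 7.39 and 10.12 in over-expression-labelled heads, against 9.69 and 10.24 in control heads. The male-biased gene *sxe2* read 7.69 and 8.57 in over-expression-labelled heads, against 10.26 and 9.44 in control heads (adjusted p = 0.0650). The yolk protein genes *Yp1*, *Yp2* and *Yp3*, transcribed in female fat body, were between 14.10 and 14.32 on all 4 arrays. The maxima of these arrays were 14.27 to 14.32, so a difference in the yolk protein genes may not show. The part of the sex make-up of the samples in these results was not tested.

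**Figure D4:**
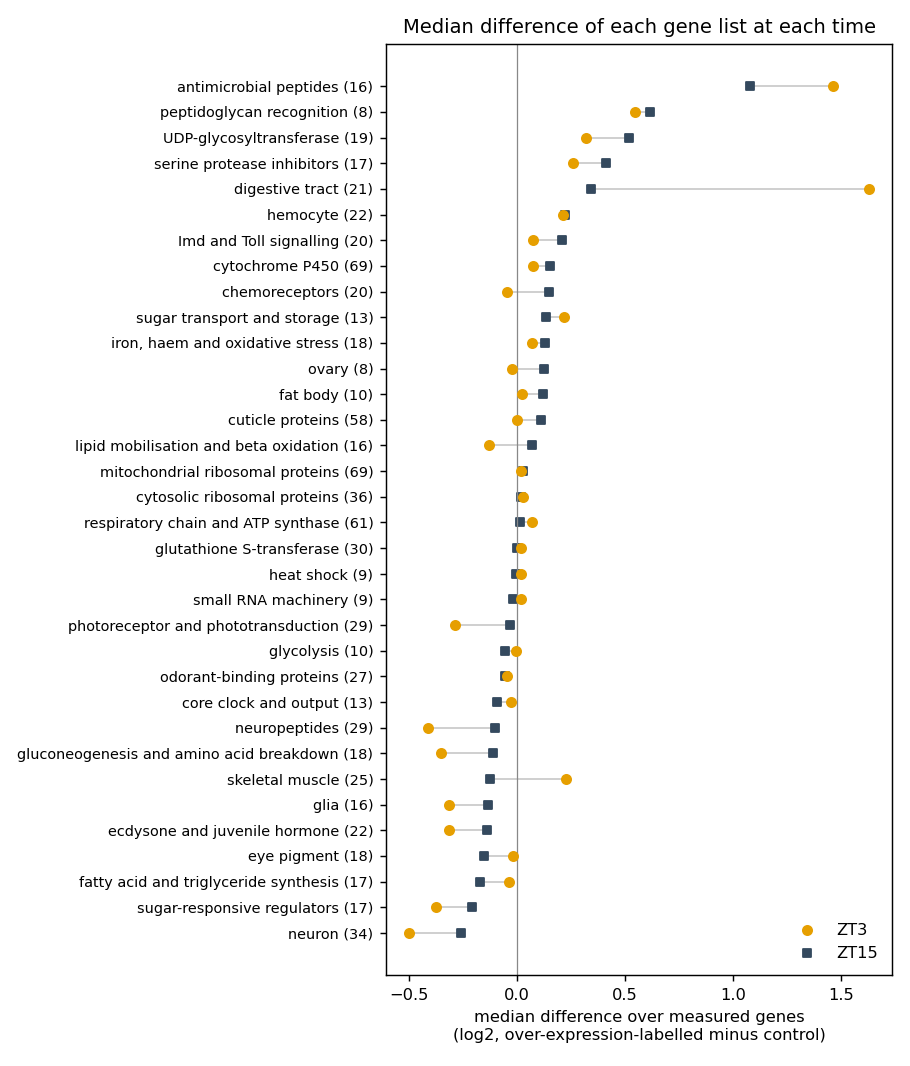
Median difference (log2, over-expression-labelled minus control, horizontal axis) over the measured genes of each list with at least 8 of them, whose number stands in brackets, with orange circles for ZT3 and dark squares for ZT15. The antimicrobial peptide list is high at both times, at 1.46 and 1.08, while the digestive tract list has 1.63 at ZT3 and 0.34 at ZT15.

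A separate group of genes was far higher on the over-expression-labelled ZT3 array than on any other. It was chosen on those values, at least 4-fold above each of the other 5 arrays, and is described without a test. It held 67 probe sets (0.615%) for 56 genes (0.658%), 17 of them known only by a number, besides 3 probe sets for several genes and 7 with no gene listed. Their median signal was 7.86 at ZT3 and 4.48 at ZT15 in the over-expression-labelled genotype, against 4.57 and 4.05 on control arrays, and 3.97 and 4.01 on RNAi-labelled arrays. The median difference was 3.33 at ZT3 and 0.44 at ZT15, and 27 of the 67 were at least 1.5-fold higher at ZT15 as well. The next highest array was control ZT3 for 34 probe sets, over-expression-labelled ZT15 for 26 and another one for 7. In the opposite direction 1 probe set was at least 4-fold below all other arrays on that array. Just inside the limit of 2 log2 units lay *exu* at 2.01 and *Mal-A1* at 2.07 above the next highest array, and just outside it *Act88F* at 1.96 and *krimp* at 1.87.

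Digestive enzyme genes formed a part of this group. Trypsins, Jonah proteases and maltases are made in the gut, which lies mostly outside the head. The Jonah protease gene *Jon65Aiv* read 11.13 at ZT3 and 5.94 at ZT15 in over-expression-labelled heads, against 5.83 and 3.84 in control heads. *Jon65Aiii* read 11.10 and 5.98, against 6.20 and 5.15, and the trypsin gene *alphaTry* 11.00 and 5.42, against 6.08 and 4.92. In all 3 the over-expression-labelled ZT3 level was by far the highest. *betaTry* read 10.75 and 4.54, against 6.02 and 4.39, and *Jon74E* 8.81 and 4.66, against 4.69 and 4.62. *yip7*, another gut protease gene, read 10.10 and 6.61, against 5.93 and 4.32, and so kept a difference of 2.29 at ZT15, as *Jon65Aiv* did with 2.10. Similar sequences in these families may share signal.

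Of the 21 digestive tract markers measured, 9 were in the group and 19 were highest on the over-expression-labelled ZT3 array, against 26.4% of all genes. At least 2-fold higher were 12 at ZT3, against 4.52% of all genes, and 3 at ZT15, against 2.5%, and 2 passed in the model, *thetaTry* by 0.91 and *Mal-A5* by 0.48 (limma, adjusted p = 0.0458 and 0.0477). Neither passed without the over-expression-labelled ZT3 array, where a single array of that genotype remains. The differences in that fit were 0.68 for *thetaTry*, 0.44 for *Mal-A5*, 1.94 for *Jon65Aiv* and 1.95 for *yip7*. Other digestive genes had 0.57 (*Jon65Aiii*), 0.26 (*alphaTry*), 0.10 (*Jon74E*) and -0.17 (*betaTry*). The missing calls of *thetaTry* and *Mal-A5* therefore do not show that digestive genes were alike between the genotypes in that fit. The list averaged 8.38 and 6.24 on the over-expression-labelled arrays, against 6.27 and 5.72 on control arrays. The remaining members were not alike. *Jon66Ci* read 5.08 and 4.77, against 4.81 and 4.73, and *LysX* 6.08 and 4.11, against 4.30 and 4.40. The maltase gene *Mal-A1* read 8.84 and 6.03, against 5.98 and 5.53. *Peritrophin-15a*, of the gut lining, read 7.56 and 4.03, against 4.01 and 3.72, while the other 3 genes of the peritrophic matrix and mucin list reached at most 5.01 on any array.

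Genes of egg production formed another part, a grouping made after the values were seen. Oogenesis and egg activation transcripts numbered 9: *osk*, *nanos*, *BicC*, *gnu*, *dhd*, *mtrm*, *fs(1)Ya*, *wisp* and *exu*. *osk*, which marks the posterior pole of the egg, read 9.38 and 3.59 on the over-expression-labelled arrays, against 5.24 and 2.65 on control arrays, and its other probe set read 8.38 and 3.27, against 4.20 and 3.09. *dhd*, for a thioredoxin of the oocyte, read 10.63 and 6.48, against 7.69 and 5.36. Both were higher at ZT3 than at ZT15 on the control arrays too. The median of the 9 was 7.23 and 4.46 in over-expression-labelled heads, against 4.73 and 4.03 in control heads. *RpS5b*, a ribosomal protein gene used in the ovary, read 9.89 and 6.07, against 6.58 and 5.21.

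The 4 cell division genes in the group were *CycB*, *CycB3*, *pim* and *fzy*. *CycB*, a mitotic cyclin gene, read 9.22 and 5.28, against 5.73 and 4.23 in control heads. The nuclear import gene *Pen* read 8.32 and 4.13, against 4.21 and 3.44. Eggshell genes did not share the pattern. *Cp36* read 4.47 and 4.49, against 4.57 and 4.67, and *Vm26Aa* 4.99 and 4.63, against 5.23 and 4.55. Of the 8 ovary markers measured only *Cp19* passed, by 0.91 (limma, adjusted p = 0.0223), a dim gene at 5.50 and 5.15 against 4.59 and 4.24, and it did not with the over-expression-labelled ZT3 array left out (0.0512). The list averaged 5.72 and 4.53 on the over-expression-labelled arrays, against 4.95 and 4.33 on control arrays.

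Muscle and oenocyte genes made up further bright members. Oenocytes are abdominal cells that make the hydrocarbons of the cuticle. *Cyp4g1*, the P450 gene for the last step of that synthesis, read 12.17 and 6.68 in over-expression-labelled heads, against 7.51 and 6.45 in control heads and 5.06 and 4.63 in RNAi-labelled heads. The fatty acid synthase gene *FASN3* read 7.54 and 3.44, against 4.05 and 3.62. *fln*, for the flight muscle protein flightin, read 8.75 and 3.98, against 3.81 and 4.15, and was at that low level on all 5 other arrays. The flight muscle actin gene *Act88F*, just outside the limit, read 9.63 and 7.67, against 5.66 and 6.11. Of the 25 muscle genes measured 3 were at least 2-fold higher at ZT3, namely *fln*, *Act88F* and the actin gene *Act79B*, the last at 11.10 and 9.44 against 9.01 and 9.82. The list had a median of 0.23 at ZT3 and -0.12 at ZT15. *Ag5r* and the acyl-CoA-binding gene *Acbp5* complete the 15 named for this array, at 8.90 and 4.41 against 4.40 and 4.21, and 8.54 and 4.50 against 4.06 and 3.66. The part of tissue from outside the head in this array was not tested.

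**Figure D5:**
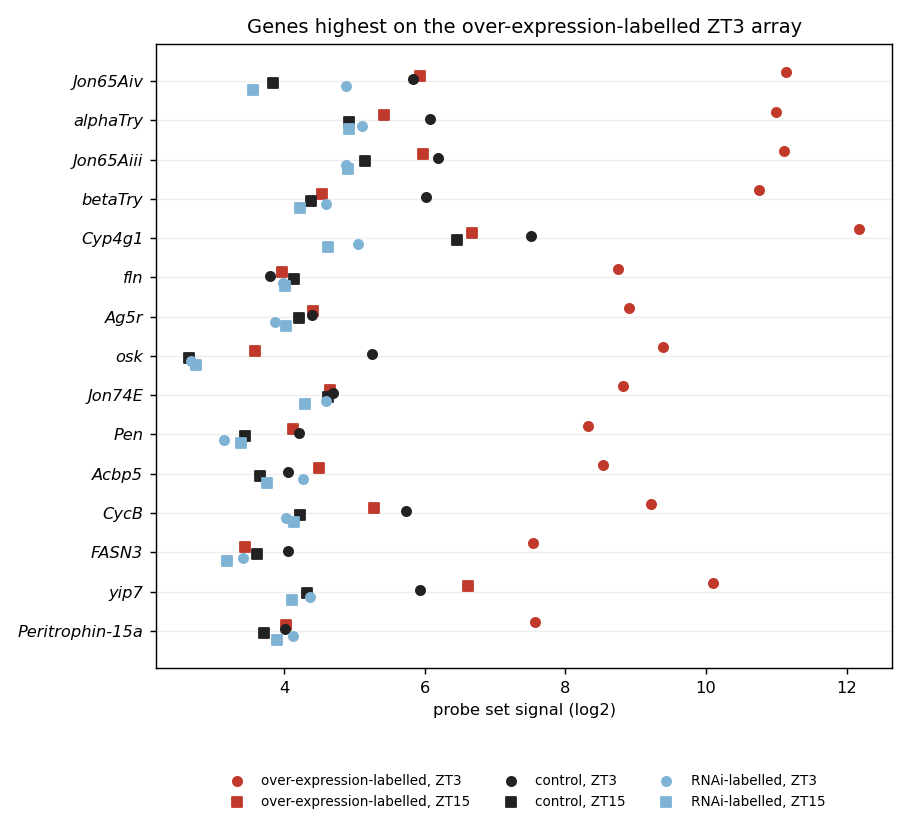
Signal (log2, horizontal axis) of the 15 named genes with the largest excess on the over-expression-labelled ZT3 array, on each of the 6 arrays, with circles for ZT3 and squares for ZT15, in red for over-expression-labelled, black for control and blue for RNAi-labelled heads. In every gene the red circle stands alone on the right, and for genes such as *osk* and *betaTry* the black circle, control at ZT3, is next.

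The over-expression-labelled ZT15 array had no comparable group, with 1 probe set at least 4-fold above each other array. The 5 named genes with the largest excess there were the cuticle genes *Cpr62Bc* and *Cpr67Fb*, the odorant-binding gene *Obp99a*, the neuropeptide gene *CNMa* and *Ugt37B1*. *Cpr62Bc* read 7.14 at ZT3 and 8.51 at ZT15, against 6.14 and 7.11 on control arrays, and rose by 1.20 (limma, adjusted p = 0.0349). *Obp99a* read 10.73 and 12.49, against 9.43 and 11.31 (adjusted p = 0.0502). Both were higher at ZT15 than at ZT3 in either genotype. *CNMa* read 4.04 and 6.28, against 4.38 and 5.21, and had differences of opposite sign at the 2 times.

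Called genes were spread over all chromosome arms, whose names come from RefSeq (assembly Release 6 plus ISO1 MT). The share called was 8.24% of 1505 genes on 2L and 7.49% of 1763 on 2R, arms that make up the chromosome balanced by CyO. It was 5.62% of 1654 genes on 3L, 6.19% of 2117 on 3R and 4.25% of 1387 on X. On chromosome 4, 4 of 65 genes (6.15%) were called, all lower. The order of the arms depends on the probe sets tested, since with only those above the 40th percentile of mean signal 3R reached 11.3% and 2L 11.4%. Whether the balancer has a part in the share on chromosome 2 was not tested.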

How the data were processed

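Total RNA of 30 heads per sample was hybridised to Affymetrix Drosophila 2.0 arrays, 1 per genotype and time. Per the submitters' processing notes, the authors used Affymetrix Expression Console to make the deposited log2 values. Its version and its summarisation and normalization methods are not given in the sources used here. The log2 scale was read from the values. The table holds 10956 probe sets, each reaching 4.00 or more on some array, so dim probe sets may have been left out earlier. The number of arrays, 6, limits the precision.

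Symbols come from the platform annotation, updated through the RefSeq table of Release 6 plus ISO1 MT: 9286 probe sets had 1 gene (9260 matched by gene ID), 276 had several, 1331 had none listed, and the 63 array controls were left out of tests. Each gene was represented by its brightest probe set on average in the 40 gene lists and in gene counts.

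Genotypes were compared by limma 3.58.1 (R 4.3.3), fitting additive effects of genotype and time to all 6 arrays with lmFit (eBayes with an intensity trend, two-sided, Benjamini-Hochberg over 10893 probe sets, threshold 0.05). Residual degrees of freedom were 2 per probe set, to which the prior contributed 3.29. SE is the moderated standard error, with a median of 0.121. The interaction between genotype and time makes up the residual and was not tested. The fit was tested on simulated data. Python 3.11.15 and matplotlib 3.10.9 drew the figures.

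Named genes were *cbt*, the 12 called genes per direction with 1 listed gene, a symbol beyond a CG number and the largest smaller-of-both-times difference, 15 and 5 such genes for the over-expression-labelled ZT3 and ZT15 arrays, up to 4 called per list, and any member of the digestive, antimicrobial peptide, Turandot and clock lists. Others are named for context. The comparison, members and lists were chosen with earlier results of these data known. The alternatives tried were a signal filter, 1 probe set per gene or their mean, no trend, no time term, a repeated quantile normalization, the 4 compared arrays alone, ribosomal protein genes as the zero point, other fold limits, and each array left out.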

Additional observations from a re-analysis of the deposited data

Results flagged for a closer look

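A few genes moved by at least 1.5-fold in opposite directions at the 2 times. With 1 array per genotype and time the difference between the times was not tested. *PhKgamma*, which encodes the catalytic subunit of phosphorylase kinase, had differences of -0.67 at ZT3 and 0.92 at ZT15 in 1 probe set, and of -0.60 and 0.86 in another. Its brightest probe set did not share this, at 10.14 and 9.98 on the over-expression-labelled arrays, against 10.07 and 9.77 on control arrays. *Scp1*, a calcium-binding protein gene, differed by 2.38 at ZT3 and -1.20 at ZT15. It read 11.88 and 9.92 on the over-expression-labelled arrays, against 9.50 and 11.12 on control arrays, so that each genotype had its high array at a different time. *Nrx-1*, the neurexin gene, differed by -0.80 and 0.66. *CG12998* differed by -0.68 and 0.86, and *CG7381* by -0.77 and 0.63.

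Of the 63 control probe sets, which enter no test above, 1 was at least 2-fold higher on both over-expression-labelled arrays than on both control arrays, and 1 at least 2-fold lower. The higher one was AFFX-Dm-K01486-1_at, at 5.52 and 6.602 on the over-expression-labelled arrays, against 2.90 and 3.52 on control arrays. The RNAi-labelled arrays, at 4.95 and 6.53, lay with the over-expression-labelled ones. The tables used here do not name its transcript. The lower one was AFFX-r2-Dros-GAPDH-3_at, at 8.63 and 8.85, against 9.91 and 9.97 on control arrays and 10.55 and 10.23 on RNAi-labelled arrays.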

How the results depend on the processing

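Against 660 calls (430 higher, 230 lower), there were 422 with no intensity trend (102 lower) and 286 with no time term (201 higher, 85 lower). Leaving out 1 array gave 0 to 1436 calls, 0 to 793 higher and 0 to 643 lower, with 0 without either control array. Of 88 named calls, each counted under every rule that names it, 56 passed without the over-expression-labelled ZT3 array, 84 without the ZT15 one and 0 without either control array, and none reversed under any alternative. With 1 array left out, members called ran from 0 to 11 (antimicrobial peptides), 4 (peptidoglycan recognition), 5 (Imd and Toll), 4 (hemocyte), 16 (neuron), 19 (P450), 5 (UDP-glycosyltransferase), 11 (odorant-binding), 11 (cuticle) and 6 (serpins). Centred on ribosomal protein genes, 1 digestive and 2 glia genes passed. Averaging the probe sets of each gene, 3 glia, 1 photoreceptor, 5 UDP-glycosyltransferase, 5 lipid mobilisation and 5 sugar-responsive genes passed. At 1.5-fold, ZT3 counted 924 higher and 674 lower and ZT15 684 and 378. At 4-fold these were 156 and 30, and 56 and 3. With the signal filter 371 calls were higher and 314 lower, ZT3 counted 168 higher, ZT15 124 higher and 44 lower, and both times 240 higher. At 2-fold at both times 194 were higher and 43 lower. Above all other arrays on the over-expression-labelled ZT3 array were 137 at 2-fold and 36 at 8-fold. With the filter 11.7% of 2R, 9.18% of 3L, 11.3% of 3R and 7.78% of X genes were called. The causes were not tested, except that fewer arrays or probe sets enter some fits. Fits without an RNAi-labelled array take their spread from the over-expression-labelled and control arrays alone. Whichever RNAi-labelled array is left out, they are nearly the same fit. No paired analysis by replicate number was possible because the labels give none. Arrays are paired by ZT through the time term. Dim probe sets, under about 4, allow no fold change to be read.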

Other observations

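Control probe sets AFFX-Dm-M15077-1_at and AFFX-Dm-M15077-1_s_at, whose transcript the tables used here do not name, followed the time of day in the genotypes compared. The first gave 4.85 (ZT3) and 6.81 (ZT15) on the over-expression-labelled arrays, against 5.55 and 7.05 on control arrays. On the RNAi-labelled arrays it stayed at 2.64 and 2.69.

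*Dcr-2*, which encodes the Dicer of small interfering RNAs, read 8.52 and 8.65 on the over-expression-labelled arrays, against 8.74 and 8.79 on control arrays, while the RNAi-labelled arrays read 12.96 and 12.87. Several of the highest called probe sets have no symbol beyond a number and were chosen here after their values were seen. *CG4757* read 12.32 and 12.15 on the over-expression-labelled arrays, against 7.86 and 6.75 on control arrays. *CG18563* read 7.86 and 7.57, against 3.79 and 3.75, *CG14191* 9.90 and 8.94, against 5.38 and 5.28, and *CG15423* 9.28 and 8.76, against 5.27 and 5.33. In all 4 of them both over-expression-labelled arrays lay above all 4 others. In the other direction *CG5966* read 8.17 and 7.76, against 10.18 and 9.43, and *CG10962* 7.65 and 7.72, against 9.79 and 9.56. The odorant-binding gene *Obp19b* read 5.04 and 6.95, against 8.24 and 8.09, and did not pass (limma, adjusted p = 0.0590).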
